A study of Mus musculus with 11 samples.

Results

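The autophagy genes described here are 36 mouse genes of the machinery that builds autophagosomes, chosen as a named list from 21887 annotated protein-coding genes. Their open chromatin was read out by ATAC-seq, where a transposase cuts into accessible DNA, in alveolar macrophages (resident macrophages of the airspaces) sorted from lungs of C57BL/6 mice. The naive group (4 samples) came from naive mice. The day 15 (4 samples) and day 30 (3 samples) groups came from mice that had received KP cells, with or without a GFP reporter, through the tail vein 15 or 30 days before the lungs were taken. KP cells are cultured mouse lung adenocarcinoma cells, so the tumours are foci of transferred cells and not lesions that arose in the lung, and which samples had the GFP reporter is not given. All groups share strain, organ and cell type.

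Each group has 1 list of peaks shared by its samples. Conditions therefore could not be tested against each other, replicate error is unknown, and every difference is one between lists. A gene has a boundary peak when at least 1 bp of a peak lies no more than 1000 bp from the first or last base of its gene model. Such a gene is kept when the naive and the later list both hold a boundary peak, lost when only the naive list does, and gained when only the later list does. Tags are the aligned reads or read ends that the peak caller piled up at the summit of a peak, and they are not scaled to depth unless stated. Positions are in mm10, counted from 1. A gene without a peak is not shown to be closed, because weak sites fall below the peak caller's threshold. In bulk libraries, fewer cells with an open site and less opening per cell cannot be told apart.

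Autophagy encloses cytoplasm, damaged organelles or microbes in a double membrane and delivers them to the lysosome. The ULK kinase complex starts the process, a phosphatidylinositol 3-kinase complex marks the membrane, lipid is supplied by ATG9 and ATG2 proteins, and 2 conjugation systems attach LC3 and GABARAP proteins to the growing membrane, where cargo receptors bind. Macrophages also use part of this machinery to attach LC3 to phagosomes, and alveolar macrophages degrade surfactant and inhaled material in their lysosomes. TFEB is a transcription factor that activates lysosome and autophagy genes.

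The lists held 14731 (naive), 10861 (day 15) and 3352 (day 30) peaks. The genome-wide background, which follows sequencing depth, was 2.38 times the naive value at day 15 and 2.1 times at day 30. Both later lists thus held fewer peaks at a higher depth than the naive list. From day 15 to day 30 peak number and depth both fell. Boundary peaks were present at 7, 4 and 1 of 16 alveolar macrophage markers and at 7, 7 and 2 of 10 general macrophage markers in the naive, day 15 and day 30 lists. Siglecf, Marco, Fabp4, Car4, Ear1, Chil3, Bhlhe41 and Krt79 had none in any list. Counted instead as nearest gene within 50 kb, Marco had 7, 5 and 0 peaks, Chil3 2, 1 and 1, Ear1 1, 1 and 0, and Krt79 1, 0 and 0. Siglecf, Fabp4, Car4 and Bhlhe41 had none by that count either. Of other cell types, 0 of 10 epithelial and tumour, 0 of 7 endothelial and 0 of 6 B cell markers had one in any list, while 2, 2 and 0 of 7 T cell markers (Cd3d and Cd2), 1, 1 and 0 of 8 monocyte markers (Itgam) and 1, 1 and 1 of 8 neutrophil markers (S100a8) did. As nearest gene, Cdh1 had 3, 1 and 0 peaks, Epcam and Pecam1 each 1, 1 and 0, and Vwf 3, 4 and 0. The other epithelial and tumour, endothelial and B cell markers had none. The part of the falling peak number, of depth and of other cells in the results below was not tested.

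Most autophagy genes had an accessible boundary in naive macrophages, most of these kept it at day 15, and about as many were kept as lost at day 30. A naive boundary peak was present at 29 of 36 members, 80.6% (95% Wilson interval 65.0 to 90.2, which covers counting error over genes only), against 34.7% of all protein-coding genes. The day 15 list had one at 23 members and the day 30 list at 15, against 29.6% and 12.8% of all genes. At day 15, 23 of the 29 were kept (79.3%), against a background of 79.6%, 6 were lost (20.4% in the background) and 0 of the other 7 were gained (3.04% in the background). At day 30, 15 of the 29 were kept, 51.7% (interval 34.4 to 68.6), against 36.5% of all genes, and 14 were lost against 63.5%, with 0 gained against 0.245%. From day 15 to day 30, 14 of 23 were kept against 42.1% of all genes, 9 were lost against 57.9%, and 1 of the other 13, Atg12, was gained against 0.506%. In all 3 lists 14 of the 29 had a boundary peak, against 35.7%. The share kept at day 15 lies at the background, while the day 30 share is above it. Among the 3352 peaks with the highest −log10 p in each list, members with a boundary peak numbered 8, 12 and 15, while all genes numbered 2797, 2850 and 2804. Between these shortened lists 1 member was lost and 8 were gained at day 30, where 897 of all genes were lost and 904 gained. The count of members thus fell over the full lists and was higher in the later of the shortened ones. The shortened lists rank peaks from lists of different length and cannot show whether accessibility changed.

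**Figure D1:**
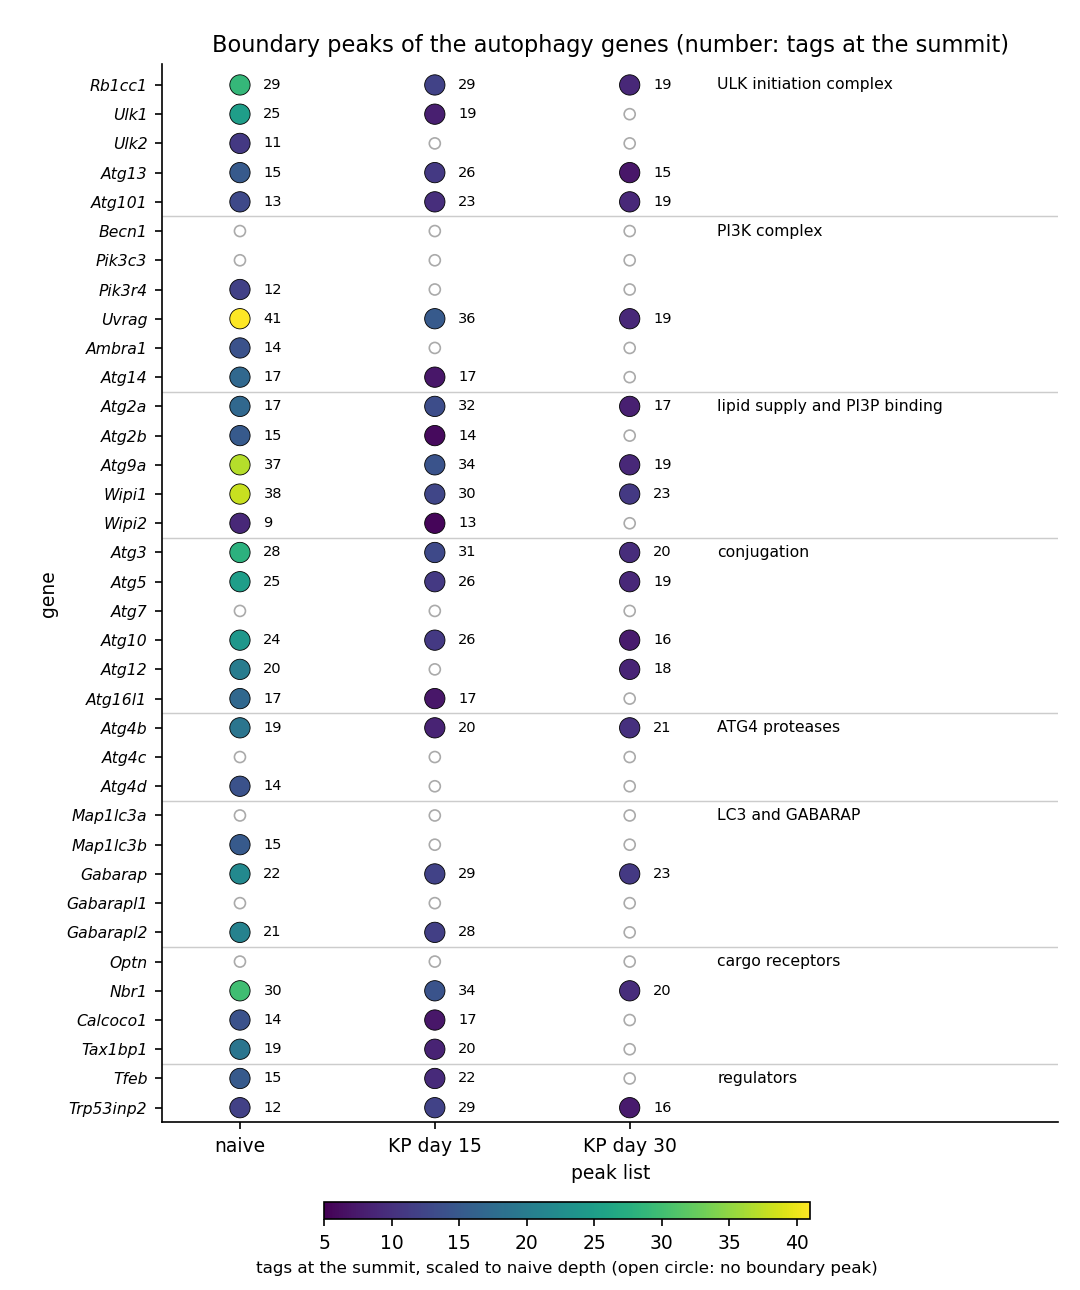
Boundary peaks of the 36 autophagy genes (rows, grouped by role) in the 3 peak lists (columns). Filled circles mark a boundary peak, coloured by tags at its summit scaled to the naive depth and labelled with the unscaled tags, and open circles mark none. Peaks are found at 29, 23 and 15 genes in the naive, day 15 and day 30 lists.

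Genes with stronger naive peaks were kept more often: from the weakest to the strongest decile of naive −log10 p, 39.8% to 99.7% of other genes were kept at day 15 and 5.01% to 91.7% at day 30. The members were therefore set beside other genes of the same decile. At day 15 the decile shares gave 23.1 genes expected to be kept, and 23 were kept. At day 30 they gave 9.2 genes expected to be kept, and 15 were kept. The members kept at day 30 beyond those with strong naive peaks were 7 of 16 in the weaker 5 deciles, where 12.5% of other genes were kept. These were Atg13, Atg101, Atg2a, Atg12, Atg4b, Gabarap and Trp53inp2. In the stronger 5 deciles 8 of 13 members were kept at day 30, against 60.3% of other genes.

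The day 30 difference was smaller when neighbouring genes were taken into account. Of the 7 weaker genes kept, Atg13, Atg12, Atg4b and Gabarap had all their day 30 peaks within 1000 bp of the end of another protein-coding gene as well. Such sharing was common: an unshared peak was present at 8 of the 15 members in the day 30 list, against 64.2% of all genes with a boundary peak there. A peak nearest to the gene itself was present at 25 of 29, 20 of 23 and 11 of 15 members in the naive, day 15 and day 30 lists, against 86.3%, 85.1% and 82.6% of all genes with a boundary peak. When only such peaks counted, 10 of 25 members were kept at day 30 and 7.43 were expected, and among members whose boundary peaks were never shared with another gene 8 of 21 were kept and 5.64 expected. With 30 other autophagy genes added, 19 of 54 were kept and 16.1 expected. The nearest-peak rule and the added genes were chosen after seeing the data. No property of autophagy genes as a class can be read from the count of 15.

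**Figure D2:**
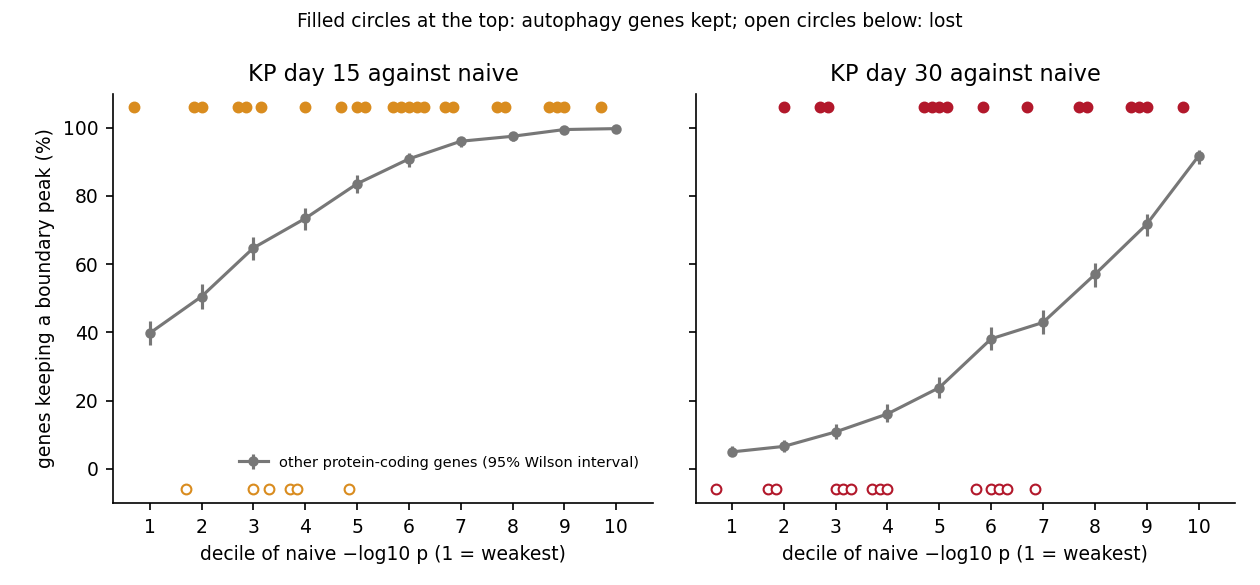
Share of genes that kept a boundary peak (vertical axis, percent) by decile of the naive −log10 p (horizontal axis, 1 weakest) at day 15 (left) and day 30 (right). Grey points are all other protein-coding genes with 95% Wilson intervals. Filled circles above and open circles below are single autophagy genes kept and lost. At day 15 all 13 members of deciles 6 to 10 are kept, and at day 30 8 of them are.

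All 5 genes of the ULK initiation complex had naive boundary peaks, 4 did at day 15 and 3 at day 30. Rb1cc1, which encodes the scaffold FIP200, had one peak in each list across its lower end (chromosome 1: 6214222 to 6215174 in the naive list), with 29, 29 and 19 tags at the summit in the naive, day 15 and day 30 lists. The kinase gene Ulk1 (chromosome 5: 110810045 to 110810359) had 25 and 19 tags and no boundary peak at day 30. Its paralog Ulk2 had 11 tags in the naive list and no later peak. The 2 kinase genes were thus the members of this complex without a boundary peak at day 30. Ulk1 did keep a second site inside the gene, 1562 bp from its start in the naive list, with 17, 22 and 17 tags, just beyond the 1000 bp limit. The farthest boundary peak within that limit lay 901 bp from a gene end, at Atg2a.

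Atg13, an adaptor of the ULK complex, had 2 naive peaks beside its start (chromosome 2: 91710466 to 91710667 with 15 tags and 91710747 to 91711045 with 14 tags). The one across the start was not in the later lists. The other, nearest to the neighbouring gene Harbi1, had 26 tags at day 15 and 15 at day 30. Atg101, which encodes the partner that stabilises ATG13, had 13, 23 and 19 tags at its start (chromosome 15: 101283905 to 101284359).

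For the phosphatidylinositol 3-kinase complex, boundary peaks were found at 4, 2 and 1 of its 6 genes in the naive, day 15 and day 30 lists. Uvrag, a subunit of the endosomal form of the complex, had the strongest naive peak of all members (chromosome 7: 99140999 to 99141627), with 41 tags and a deposited fold over local background of 12.2. It had 36 tags (fold 8.53) at day 15 and 19 (fold 5.65) at day 30. Atg14, the subunit of the autophagosomal form, had 17 and 17 tags and no peak at day 30. Pik3r4, the regulatory kinase-like subunit, and Ambra1, a regulator of Beclin 1, had 12 and 14 tags in the naive list only (chromosome 9: 105642899 to 105643250 and chromosome 2: 91729950 to 91730346). Becn1, which encodes Beclin 1, had no peak assigned to it in any list. Pik3c3, the catalytic subunit, had no boundary peak, and a site inside the gene, 7004 bp from its lower end, had 29 tags in the naive list and 22 at day 15.

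The genes of lipid supply and of binding to the marked membrane had naive boundary peaks at all 5 members and kept all 5 at day 15 and 3 at day 30. Atg9a, the lipid scramblase, had 37, 34 and 19 tags across its start (chromosome 1: 75191838 to 75192346). Its other naive boundary peaks, at 75180263 to 75180471 (11 tags) and 75192562 to 75192803 (22 tags), were in neither later list. All Atg9a boundary peaks also lay within 1000 bp of an end of Ankzf1 or Abcb6. Wipi1, which binds the lipid made by the kinase complex, had 38, 30 and 23 tags (chromosome 11: 109611307 to 109612057). The lipid transfer gene Atg2a (chromosome 19: 6241430 to 6241723) had 17, 32 and 17 tags. A second Atg2a peak, found at day 15 alone and lying within the gene body (6242379 to 6242640), had 21 tags. Its paralog Atg2b had 15 and 14 tags and Wipi2, which recruits the conjugation complex, 9 and 13 tags, and both had no boundary peak at day 30.

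Uvrag, Atg2a and Atg9a each hold 3 matches to CCAAT, the pentamer bound by the factor NF-Y, in the 300 bases around their RefSeq start (GRCm38.p6, 250 bases before it to 50 after). They are shown because these promoters, with that of Atg7 (4 matches, no peak), hold the most CCAAT matches of any member promoter. In the naive list 300, 288 and 300 of the 300 bases were within a peak, at day 15 300, 272 and 250, and at day 30 283, 200 and 209. Capitals mark CCAAT on either strand, and each sequence is printed 5′ to 3′ on the strand of its gene. Uvrag is at chr7:99141095-99141394 (minus strand), Atg2a at chr19:6241418-6241717 (plus strand) and Atg9a at chr1:75191961-75192260 (minus strand).
Uvrag: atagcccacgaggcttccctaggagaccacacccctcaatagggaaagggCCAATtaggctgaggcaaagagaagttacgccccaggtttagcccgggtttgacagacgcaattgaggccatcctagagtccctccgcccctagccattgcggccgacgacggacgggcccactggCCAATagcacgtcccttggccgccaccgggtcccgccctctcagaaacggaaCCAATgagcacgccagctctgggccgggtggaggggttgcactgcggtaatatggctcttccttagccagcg
Atg2a: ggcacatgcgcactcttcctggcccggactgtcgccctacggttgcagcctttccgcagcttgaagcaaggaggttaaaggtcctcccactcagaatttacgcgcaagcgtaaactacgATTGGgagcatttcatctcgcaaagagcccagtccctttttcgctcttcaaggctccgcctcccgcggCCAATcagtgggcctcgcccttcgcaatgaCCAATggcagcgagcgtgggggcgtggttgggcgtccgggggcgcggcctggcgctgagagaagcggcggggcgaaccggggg
Atg9a: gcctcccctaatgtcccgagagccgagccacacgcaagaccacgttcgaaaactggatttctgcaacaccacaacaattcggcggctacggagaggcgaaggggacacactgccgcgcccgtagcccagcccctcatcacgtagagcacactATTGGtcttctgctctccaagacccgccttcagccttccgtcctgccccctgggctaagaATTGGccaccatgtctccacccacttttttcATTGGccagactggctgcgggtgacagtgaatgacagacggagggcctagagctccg

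The first bases of the matches lie 200, 74 and 22 bases before the start of Uvrag, 131, 63 and 33 before that of Atg2a, and 98, 38 and 7 before that of Atg9a. Of the 30 members with RefSeq promoters, 8 held a match (26.7%), against 42.3% of 17492 protein-coding genes with such promoters. Of the 26 members with a promoter and a naive boundary peak 7 held one (26.9%), against 46.7% of all such genes. The differences were not tested. The other 5 of the 8 were Pik3r4, Atg7, Atg4d, Nbr1 and Trp53inp2.

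Of the 6 conjugation genes, 5 had a naive boundary peak, 4 did at day 15 and 4 at day 30. Atg3, the enzyme that transfers LC3 to lipid, had 28, 31 and 20 tags across its start (chromosome 16: 45158527 to 45159052), in a region shared with the neighbouring gene Slc35a5, to which the peaks are nearest. Atg5, the acceptor of ATG12 in the conjugate that directs this transfer, had 25, 26 and 19 tags (chromosome 10: 44268177 to 44268670). It also had a site 16183 bp beyond its far end with 25 tags in the naive list and 22 at day 15 that was absent at day 30. Atg10, the enzyme that joins ATG12 to ATG5, had 24, 26 and 16 tags (chromosome 13: 91223644 to 91224408), within the gene model and over the start of the RefSeq promoter. Atg16l1, the membrane-targeting partner of that conjugate, had 17 and 17 tags and no peak at day 30.

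Atg7, the activating enzyme of both conjugation systems, had no boundary peak. A peak 5604 bp downstream of the first base of the gene model was in the day 15 list only (chromosome 6: 114648731 to 114649153, 16 tags). The Atg7 promoter of the RefSeq table lies farther inside the gene model.

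The E-box CACGTG is the core of the motif bound by TFEB and its relatives. It was found in the promoters of 4 of the 30 members (13.3%), Atg3, Atg5, Atg7 and Atg14, against 8.91% of all genes with a promoter. Of the 26 members with a promoter and a naive boundary peak 3 held it (11.5%), against 12.0% of all such genes. The longer TCACGTGA, of which CACGTG is the inner part, was found in 1 member (3.33%), Atg3, against 1.41% of all genes. Among those with a naive boundary peak the share was 3.85% of members, against 2.39%. The 4 promoters are shown with the E-box in capitals, since they are the searched member promoters that hold it. Which factor, if any, binds there was not tested. Atg7 and Atg14 were added after their values were seen. Atg3 is at chr16:45158579-45158878 (plus strand), Atg5 at chr10:44268089-44268388 (plus strand), Atg14 at chr14:47568385-47568684 (minus strand) and Atg7 at chr6:114670846-114671145 (plus strand).
Atg3: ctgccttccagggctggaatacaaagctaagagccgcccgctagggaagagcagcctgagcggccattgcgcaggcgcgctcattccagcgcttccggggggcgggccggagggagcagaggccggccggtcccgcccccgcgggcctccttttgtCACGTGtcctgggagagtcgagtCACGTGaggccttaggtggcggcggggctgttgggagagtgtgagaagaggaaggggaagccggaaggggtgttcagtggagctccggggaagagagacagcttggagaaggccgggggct
Atg5: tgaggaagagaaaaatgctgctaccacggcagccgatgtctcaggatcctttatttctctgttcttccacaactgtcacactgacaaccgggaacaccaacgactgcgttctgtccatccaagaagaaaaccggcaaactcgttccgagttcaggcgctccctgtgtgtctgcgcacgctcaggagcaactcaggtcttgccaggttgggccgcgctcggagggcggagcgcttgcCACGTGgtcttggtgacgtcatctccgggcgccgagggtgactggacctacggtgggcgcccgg
Atg14: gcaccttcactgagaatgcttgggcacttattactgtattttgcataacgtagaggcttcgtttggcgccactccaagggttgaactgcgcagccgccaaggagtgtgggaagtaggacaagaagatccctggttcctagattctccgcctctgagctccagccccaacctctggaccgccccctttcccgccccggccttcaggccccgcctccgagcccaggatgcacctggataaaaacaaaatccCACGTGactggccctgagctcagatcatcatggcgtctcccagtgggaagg
Atg7: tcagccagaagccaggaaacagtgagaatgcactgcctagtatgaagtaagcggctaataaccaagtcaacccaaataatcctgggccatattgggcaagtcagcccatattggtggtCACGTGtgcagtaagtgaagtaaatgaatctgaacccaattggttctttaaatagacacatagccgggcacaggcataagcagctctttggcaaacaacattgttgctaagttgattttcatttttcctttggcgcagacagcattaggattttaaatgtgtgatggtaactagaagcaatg

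The E-boxes begin 94 and 71 bases before the start of Atg3, 14 before that of Atg5, 1 before that of Atg14 and 132 before that of Atg7. All 300 bases of the Atg3 promoter lay in a peak in all 3 lists. Of the Atg5 promoter 212, 188 and 76 bases were in a peak in the naive, day 15 and day 30 lists, of the Atg14 promoter 269, 181 and 0, and of the Atg7 promoter 0 in each. Motifs thus occurred in promoters that kept, lost and never had a peak. Of the other motifs searched on both strands, CCGGAAG is bound by ETS factors. It was in 3 of 30 members (10.0%), against 12.9% of all genes with a promoter. Of the 26 members with a promoter and a naive boundary peak 3 held it (11.5%), against 23.2% of all such genes. CGCATGCG (NRF1) was in 0 of 30 and 0 of 26, against 2.77% and 5.11%. TGANTCA (AP-1) was in 0 of 30 and 0 of 26, against 8.12% and 4.96%. A match describes the sequence only, and its absence says nothing about the factor.

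**Figure D3:**
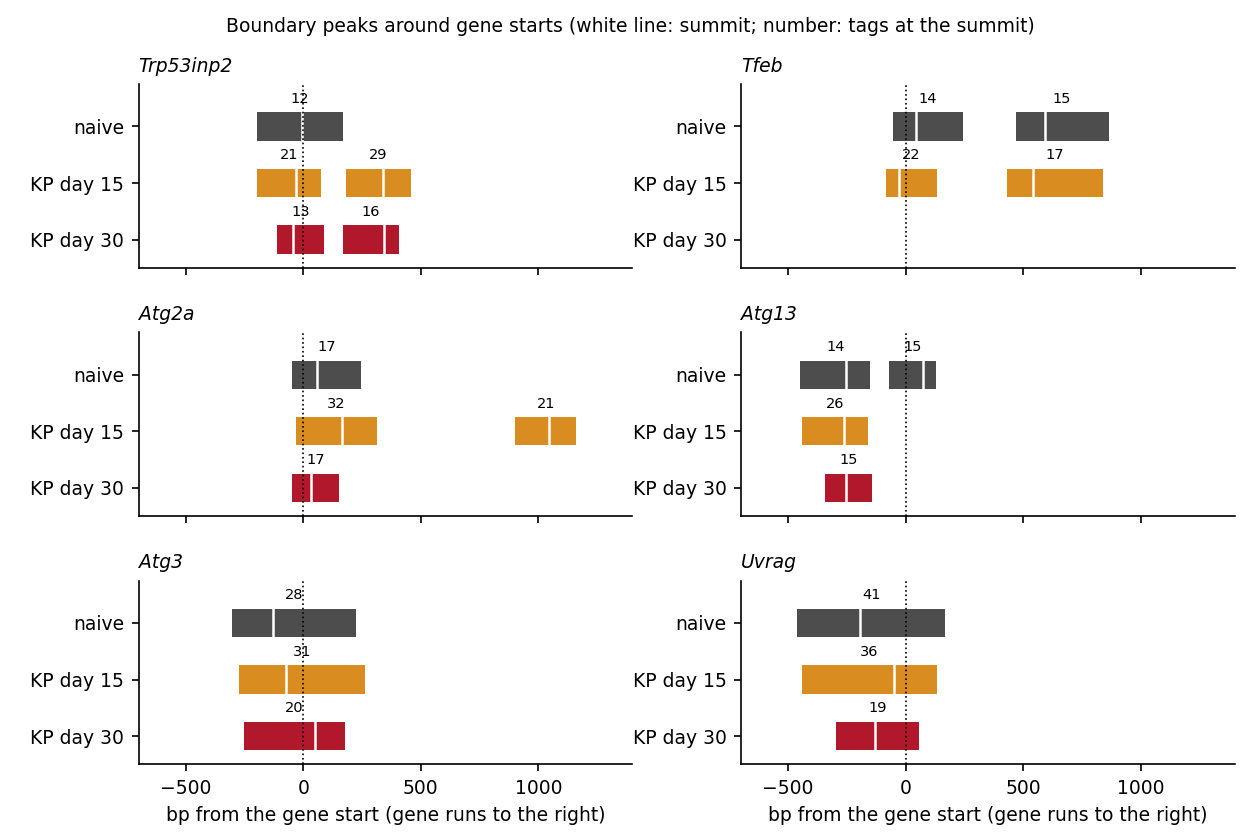
Boundary peaks of 6 autophagy genes by distance from the gene start in bp (horizontal axis) in the naive, day 15 and day 30 lists (rows). Bars span each peak, white lines mark the summit and numbers give its tags. Trp53inp2 has a second peak inside the gene in both tumour lists and Tfeb has none at day 30.

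Of the ATG4 proteases, which trim LC3 and release it from membranes, Atg4b had a boundary peak in each list, with 19, 20 and 21 tags, at a start shared with Thap4 (chromosome 1: 93754527 to 93755192). Atg4d had 14 tags in the naive list only (chromosome 9: 21265078 to 21265406). Atg4c had no boundary peak by the outer ends of its gene model, yet 4, 4 and 2 peaks were assigned to it as nearest gene. One of these (chromosome 4: 99194046 to 99194522 in the naive list, with 15, 13 and 11 tags) overlapped a RefSeq start that lies inside the gene model, covering 151, 96 and 70 of the 300 bases of that promoter. For Atg4c the outer ends therefore missed an accessible start that all 3 lists held.

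The LC3 and GABARAP proteins are the ubiquitin-like tags of the autophagosome. Of their 5 genes, 3 had a naive boundary peak, 2 at day 15 and 1 at day 30. Map1lc3b, which encodes LC3B, lost the peak at its start (chromosome 8: 121590304 to 121590509, 15 naive tags) while a site 4735 bp before the start was kept at day 15, with 22 naive and 33 day 15 tags (folds of 8.16 and 8.95), and was absent at day 30. Gabarapl2 had 21 and 28 tags at its start and no peak at day 30. The only member of the family in all 3 lists was Gabarap, with 22, 29 and 23 tags. That peak (chromosome 11: 69995447 to 69995810) lay 498 bp beyond the far end of Gabarap, nearest to Phf23, and no base of the Gabarap promoter was in a peak in any list. At the gene start no LC3 or GABARAP gene therefore had a peak at day 30. Map1lc3a and Gabarapl1 had no peak assigned to them in any list.

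Of the cargo receptors, Nbr1 had 30, 34 and 20 tags (chromosome 11: 101552521 to 101552989), Calcoco1, a receptor for endoplasmic reticulum, 14 and 17 tags, and Tax1bp1, which binds ubiquitinated cargo, 19 and 20. The Nbr1 peaks also lay within 1000 bp of an end of Brca1. Calcoco1 and Tax1bp1 had no boundary peak at day 30. Optn, which encodes a receptor for mitochondria and bacteria, had no peak assigned to it in any list.

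The transcription factor gene Tfeb and the LC3-binding regulator gene Trp53inp2 went different ways. Tfeb, which encodes the factor described above, had 2 naive peaks near its start, with 14 and 15 tags (chromosome 17: 47736985 to 47737279 and 47737505 to 47737900). Both were in the day 15 list, with 22 and 17 tags, and neither was at day 30. As nearest gene, Tfeb had 5, 2 and 0 peaks. All 3 naive sites far from the ends lay in the gene body and were in neither later list, and the strongest (47768699 to 47769056) had 28 tags and a deposited fold of 8.33. No other member had as many naive peaks.

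Trp53inp2 had 1 naive peak, across its start (chromosome 2: 155381615 to 155381980), with 12 tags. At day 15 it had 21 tags there and a second peak inside the gene at 155381992 to 155382269, with 29 tags, that overlapped no naive peak. At day 30 the peaks had 13 and 16 tags, and the second touched the naive peak by a single base. Its naive peak lay in the second weakest decile, where 6.61% of other genes were kept at day 30.

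Atg12, which encodes the ubiquitin-like protein joined to ATG5, was the 1 member present in the naive list (20 tags, chromosome 18: 46741509 to 46742034) and at day 30 (18 tags) but not at day 15. Among all genes with a naive boundary peak 0.764% showed this order. The site is shared with the neighbouring gene Ap3s1, to which the naive peak was nearest, while the day 30 peak was nearest to Atg12.

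Depth-scaled signal at kept members was mostly lower in the tumour lists than in the naive list, as at nearly all genes. The 23 members kept at day 15 had a median of 19 tags in the naive list (9 to 41) and 26 at day 15 (13 to 36). Scaled to depth, the ratio of day 15 to naive had a median of 0.45 (0.32 to 1.01) and was below 1 in 22 of 23 members. Over all 6042 genes kept the median was 0.44, and 99.6% were below 1. The exception was Trp53inp2, with 1.01 (exact 95% interval 0.50 to 2.18 from the counts), a value that rests on its second peak: scaled to depth, that peak had 12.2 tags and the one across the start 8.81, against 12 naive. At Uvrag the ratio was 0.37 (0.23 to 0.59).

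At day 30 the 15 members kept had a median ratio of 0.36 (0.22 to 0.70), all below 1, against a median of 0.29 and 99.9% below 1 over 2769 genes. By the deposited fold over local background the medians were 0.81 at day 15 and 0.74 at day 30 for members, and 0.75 and 0.59 for all genes kept. At day 15, 19 of 23 members had a lower fold than in the naive list, against 90% of all genes kept, and at day 30 15 of 15, against 98%. Ratios of kept genes leave out every gene whose peak fell below the threshold. They were not matched on naive strength. The median naive tags were 19 for members and 21 for all genes kept at day 15, and 24 and 28 for those kept at day 30.

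**Figure D4:**
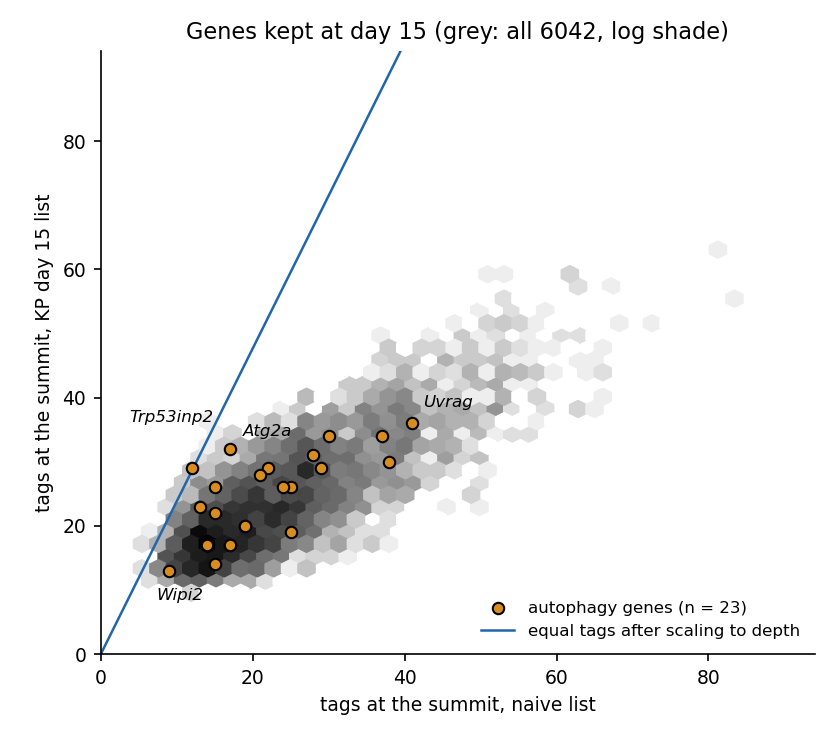
Tags at the summit of the strongest boundary peak in the naive (horizontal axis) and day 15 (vertical axis) lists, for genes kept at day 15. Grey hexagons are all 6042 genes on a log shade, orange points the 23 autophagy genes, and the blue line marks equal tags after scaling to depth. Of the autophagy genes 22 lie below the line and Trp53inp2 lies just above it, at 1.01.

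Counting all peaks whose nearest protein-coding gene end within 50 kb belonged to a member, the naive list had 38 peaks at 27 members, the day 15 list 32 at 24 and the day 30 list 15 at 13. Of the naive peaks 27 of 38 (71.1%) overlapped a day 15 peak, against 65.8% of all such peaks, and 13 of 38 (34.2%) a day 30 peak, against 23.2%. These shares were not matched on the place or strength of the peaks. In the naive list 26 of the 38 lay at a boundary, against 7052 of 12999 of all such peaks. Of the 32 day 15 peaks 28 (87.5%) overlapped a naive peak, against 87.8% of all. The 4 that did not were the second peaks of Trp53inp2 and Atg2a, the peak inside Atg7, and a site inside Atg4c (99213547 to 99213804, 12 tags). All 15 day 30 peaks overlapped a naive peak, against 96.6%. Peaks more than 1000 bp from a gene end numbered 12, 9 and 3, and the 3 at day 30 belonged to Atg4c, with 2, and Ulk1.

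Other autophagy genes, none of them among the 36, had a higher share kept at day 15 and a lower one at day 30, a difference that was not tested. Naive boundary peaks were found at 25 of 30 such genes (83.3%). Of these, 22 were kept at day 15, where 19.7 were expected at equal naive −log10 p, and 4 at day 30, where 6.9 were expected. The 4 were Tmem41b, a scramblase, with 15 naive tags, Snap29, of the fusion machinery, with 23, Epg5, a tethering factor, with 16, and Zfyve1, which marks the sites of autophagosome formation, with 24. At day 15 Wdr45, Pink1, the kinase that starts mitophagy, and Tbk1, which phosphorylates cargo receptors, were lost, and Vamp8, a fusion protein of the lysosome, was gained.

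Upstream nutrient signalling had 19 of 24 genes with naive boundary peaks, of which 12 were kept at day 15 (14.1 expected) and 7 at day 30 (6.0 expected). The kinase gene Mtor had 30 naive tags and Stk11, which activates AMP-activated kinase, 40. Both were kept at day 30, with Rheb, the activator of mTOR, and Prkag1. At day 15 the mTOR inhibitor gene Tsc1 and the AMP-activated kinase genes Prkaa1 and Prkab1 were lost, with 10, 7 and 21 naive tags, and Mlst8, a subunit of the mTOR complexes, was gained. Tfe3 and Mitf, relatives of Tfeb named after their values were seen, had 12 and 22 naive tags and were kept at day 15 and lost at day 30.

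Of the 45 lysosome genes 34 had naive boundary peaks, and 26 of them were kept at day 15 and 12 at day 30, where 26.6 and 10.2 were expected. Ctsh and Ctsl, proteases, and the proton pump genes Atp6v0d1 and Atp6v1a were among the 12. Lamp2 and Ctsk were among 4 genes gained at day 15, and Ctsa and Ctsb among 8 lost. A further 7 had a boundary peak in neither the naive nor the day 15 list. Over all genes, 3.04% of those without a naive boundary peak were gained at day 15 and 20.4% of those with one were lost. In the proteasome list 21 of 26 were kept at day 15 and 7 at day 30, where 20.3 and 7.6 were expected. Psma2, Psma4, Psmb3 and Psmc6 were among those kept at day 30. Psmb5, Psmb8 and Psmc2 were among 4 gained at day 15, and Psmb6 among 5 lost, while 7 had a boundary peak in neither list. At day 30, 2 of the proteasome genes without a naive boundary peak were gained and 9 were not. Of all genes without a naive boundary peak 0.245% were gained at day 30.

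**Figure D5:**
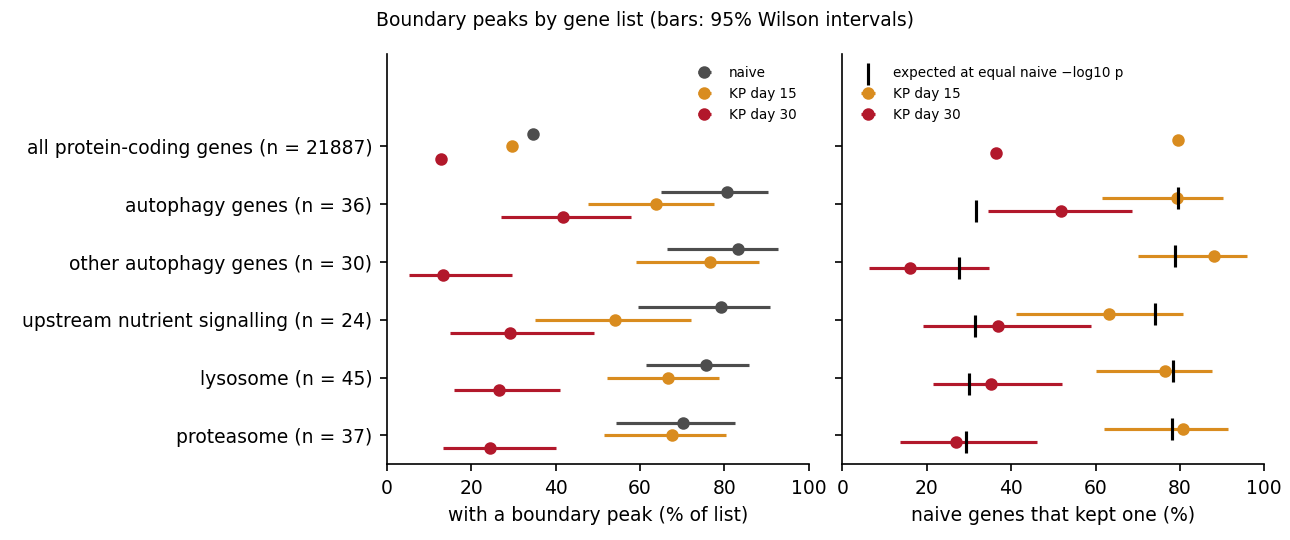
Share of each gene list with a boundary peak (left, percent) and share of its naive genes that kept one (right, percent), for the naive, day 15 and day 30 lists, with 95% Wilson intervals over genes. Black ticks give the share expected at equal naive −log10 p. At day 30 the autophagy genes keep 51.7% and the 30 other autophagy genes 16.0%.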

How the data were processed

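ATAC-seq of 11 samples in 3 groups was deposited as 3 peak lists, 1 for each group. The submitters' processing notes name the aligner Bowtie2 2.3.4.1, the peak caller MACS2 2.1.1 and the build mm10. Settings, read filters, read shifting and pooling of samples are not given in the sources used here. In every deposited list are a score, a fold over local background (a ratio), the −log10 of p and of q, and a summit position. The lists have no header, and these units follow from the values themselves.

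From these columns, Python 3.11.15 and scipy 1.17.1 recovered the tags at each summit, from the fold, taken as tags plus 1 over background plus 1, and p, an upper Poisson tail. Every peak gave a whole number within 0.001 of its −log10 p, and the procedure was tested on simulated data. The most frequent background of each list (0.785, 1.87 and 1.64 tags) served as its depth. Depth limits which peaks are called, and intervals cover counting error only. Of the boundary peaks of a gene the one with the highest −log10 p was used.

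Genes, ends and promoters came from RefSeq tables of GRCm38.p6, the same build as mm10. All 36 members matched by symbol, and 30 had promoters. Members, lists and motifs were chosen with earlier results of these data known. Positions and tags are given for members in all 3 lists and for those lost at day 15 with the 5 highest naive −log10 p, and up to 4 changed and 4 kept genes are named for other lists, in list order. Promoters were to come from members kept at day 30, in list order, and those printed among them were picked for their motifs. Positions and tags of further members, and the promoters of Atg7 and Atg14, were chosen after their values were seen. The alternatives were other distances, thresholds, list lengths, bins and overlaps.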

Additional observations from a re-analysis of the deposited data

How the results depend on the processing

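Leaving out a sample was not possible, since each group has 1 peak list. No paired analysis was possible because the samples of a group share that list. Over 157 values of 25 results under the alternatives, 140 stayed within 1.5 times the main count or within its interval and 17 did not. By this rule the boundary distances of 500 and 2000 bp, the threshold of 3 on −log10 q and the summit rule moved none. Quintiles, deciles of fold, unshared peaks, the 20 and 100 kb distances, the stricter overlap and overlapping pairs of peaks moved none either. The rule is wide for the day 30 share kept minus the share expected, 19.99 percentage points in the main setting. That value was 11.23 with unshared peaks, 10.27 with peaks nearest to the gene itself and 5.40 with the 30 other autophagy genes. These 3 falls were counted as unmoved. Under the other alternatives it was 17.60 to 23.64. The number expected kept at day 30 was 8.75 to 9.74 against 14 to 16 kept of 29 or 30 under 500 bp, 2000 bp, the q threshold, the summit rule, quintiles and deciles of fold.

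With the top 3352 peaks of each list, members with a boundary peak numbered 8 naive and 12 at day 15, with 15 at day 30 as before, while all genes numbered 2797, 2850 and 2804. Then 7 were kept, 1 lost and 5 gained at day 15, 7 kept, 1 lost and 8 gained at day 30 against naive, and 1 lost and 4 gained between day 15 and day 30. Of all genes 2137 were then kept, 660 lost and 713 gained at day 15, and 1900 kept, 897 lost and 904 gained at day 30 against naive. The share kept minus the share expected was 14.5 percentage points at day 15, against -0.32, over 8 members, and the share expected at day 30 was 63.9%, against 31.7%. With the gene start only, 0 members were gained from day 15 to day 30, since Atg12 had no start in the table. With peaks nearest to the gene itself, chosen after seeing the data, 1 member was gained at day 15 and 1 at day 30. By the deposited fold in place of depth-scaled tags the median ratios were 0.813 and 0.740, and the cause was not tested.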
